A study of Mus musculus with 6 samples.

Results

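The genes described here are 10 genes of the peroxiredoxin, thioredoxin and sulfiredoxin system, which removes peroxides with electrons taken from NADPH. They were taken by name, and a gene was measured where a probe set of the array carried its symbol and no other. This held for 9 of the 10, namely Srxn1, Prdx1, Prdx2, Prdx3, Prdx4, Txn1, Txn2, Txnrd1 and Txnip, out of 19938 genes in all. Prdx5 was not analysed here. The RNA came from mouse embryonic fibroblasts (MEFs), connective tissue cells grown from embryos, hybridised to 6 Affymetrix Gene ST arrays. Of these, 3 were of H2AX wild-type cells (WT) and 3 of H2A.X Knockout cells (H2AX KO), which lack the histone variant that marks DNA double-strand breaks when phosphorylated. Both genotypes were cultured alike in serum-containing medium and received no treatment. The sources used here do not give the allele, the number of embryos or clones behind each genotype, or the passage, so that genotype and any other difference between the cell lines cannot be told apart.

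Peroxiredoxins are abundant thiol peroxidases. A cysteine of the enzyme is oxidised by hydrogen peroxide, forms a disulfide with a partner cysteine and is reduced again by thioredoxin, which thioredoxin reductase in turn recharges from NADPH. At high peroxide the cysteine of the typical enzymes can be oxidised further to a sulfinic acid, an inactive form that sulfiredoxin repairs. Txnip binds reduced thioredoxin and restrains it.

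On each array the deposited values are log2 expression values, so that a difference of 1 is a 2-fold change. Array medians lay between 6.06 and 6.12. H2ax, the targeted gene, read 8.96, 9.18 and 9.00 on the WT arrays and 7.69, 7.77 and 7.67 on the H2AX KO arrays. It fell by 1.34 on the log2 scale (standard error 0.07, adjusted p = 5.8e-07 from limma), which matched the labels, although the sources used here do not say where its probes lie relative to the deletion. Of 10 fibroblast markers 5 were higher in H2AX KO cells, 4 were lower and 1 did not pass. Among all genes 18.4% were higher and 15.0% were lower. Col1a1 and Vim read between 11.32 and 13.23 on all arrays. Thy1 had a log2 fold change of 4.03 and Pdgfrb of 1.70, against -2.57 for Fap and -2.15 for Dcn. Fap read 6.80 to 7.22 on the WT arrays and 4.38 to 4.54 on the H2AX KO arrays. Over the marker lists of other cell types, the mean level per array lay between 5.31 and 5.42 for leukocytes, 5.47 and 5.63 for epithelium, and 4.71 and 4.96 for endothelium. Of 8 leukocyte markers 1 was higher (Cd68) and 1 lower (Cd14) in H2AX KO cells, of 6 epithelial markers none passed the test, and of 5 endothelial markers 2 were lower (Cdh5 and Emcn). Cd68 did not pass without WT replicate 1 (adjusted p = 0.084), WT replicate 3 (0.093), H2AX KO replicate 1 (0.078) or H2AX KO replicate 3 (0.089). The 3 measured genes of the Y chromosome were lower in H2AX KO cells, with log2 fold changes of -2.88 for Kdm5d, -4.04 for Eif2s3y and -3.73 for Uty. In that order they averaged 7.8, 8.09 and 8.08 in WT cells. In H2AX KO cells they averaged 4.92, 4.05 and 4.35, below the array medians. Xist averaged 4.53 in WT and 4.56 in H2AX KO cells (adjusted p = 0.80). The part of these genes and of the markers in the results below was not tested. A bulk RNA sample does not separate fewer expressing cells from less RNA per cell. The precision rests on 3 arrays a group. The study calls them independent replicates but does not say whether they came from separate cultures, so that p-values measure only the spread between these arrays.

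Most genes of the system differed little between the genotypes, and the change past 2-fold was in Srxn1. At an adjusted p under 0.05, 3 of the 9 genes passed, Srxn1, Prdx4 and Txn2, against 33.4% of all genes (limma, Benjamini-Hochberg adjustment over 19938 genes). All 3 were lower in H2AX KO cells and none was higher, whereas of all genes 15.0% were lower and 18.4% were higher. At an unadjusted p under 0.05 from limma, 5 of the 9 were lower and 1 was higher. The share of all genes at this looser threshold was not computed, and it cannot be below the 33.4% at the adjusted threshold. The methods' test without moderation called 1 of the 9 higher. With a fold change over 2 as well, 1 of the 9 was lower and none was higher, against 3.18% and 2.12% of all genes. The median log2 fold change of the 9 genes was -0.14 and that of all genes was 0.02. In 5 of the 9 genes the values of the groups did not overlap, which was also so for 44.8% of all genes. With 3 arrays in each group, no exact permutation p lies under 0.10.

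**Figure D1:**
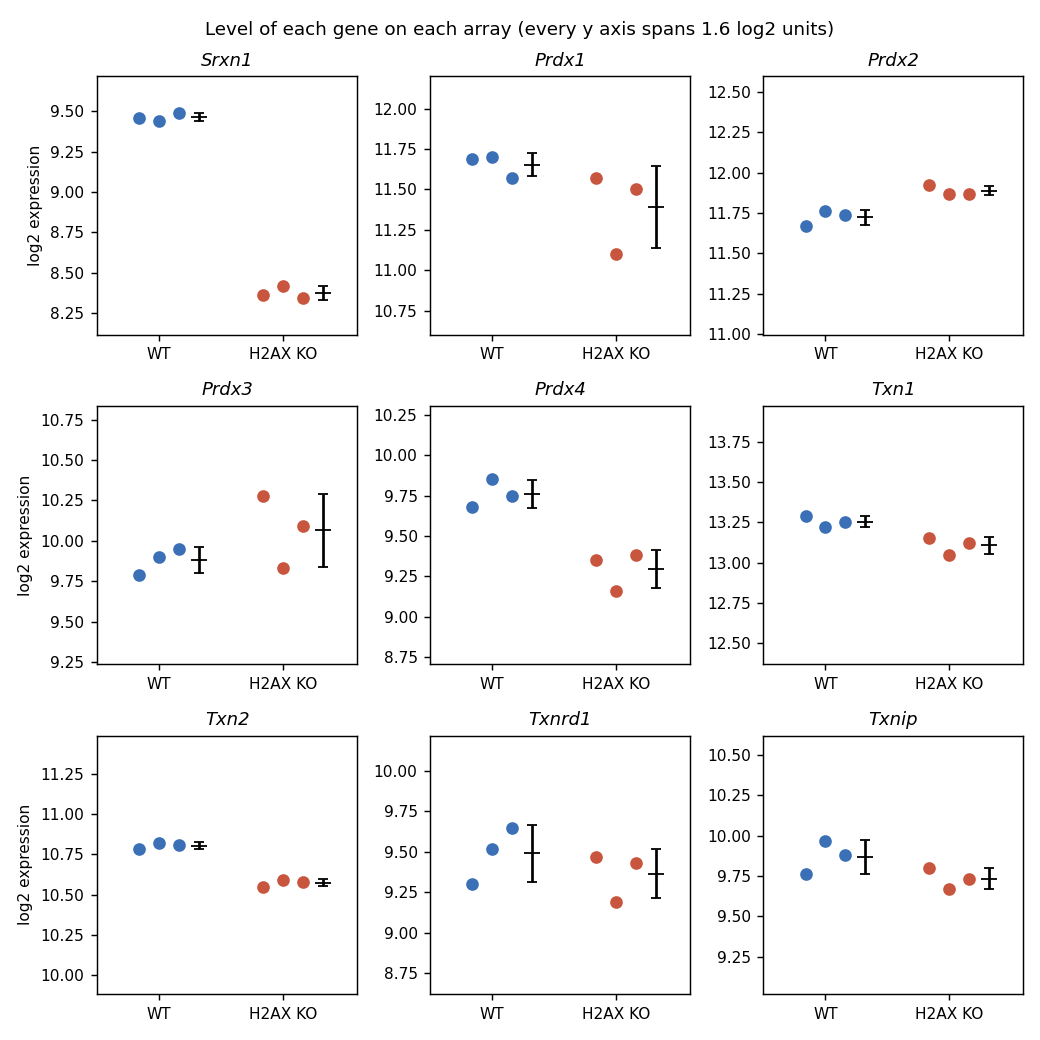
Log2 expression (y axis) of the 9 measured genes on each of the 3 WT arrays (blue) and 3 H2AX KO arrays (red), 1 point per array, with the mean and SD of each group in black. Every y axis spans the same number of log2 units, so that distances can be compared between panels, and only Srxn1 has a gap between the groups of more than 1 log2 unit (1.03).

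Sulfiredoxin, encoded by Srxn1, uses ATP to return overoxidised peroxiredoxins to their active form. Srxn1 read 9.46, 9.44 and 9.49 on the WT arrays and 8.36, 8.42 and 8.34 on the H2AX KO arrays. The groups were tight and well apart, with SDs of 0.02 and 0.04 (n = 3 each). Srxn1 fell by 1.09 on the log2 scale (standard error 0.06, 95% interval -1.23 to -0.96, adjusted p = 4.5e-07 from limma), to 46.9% of the WT level. Srxn1 is also on the list of oxidative metabolism genes that the study drew from these same arrays, and its direction therefore adds no independent evidence.

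Among the substrates of sulfiredoxin Prdx4 was lower, by less than 2-fold, and Prdx1, Prdx2 and Prdx3 did not pass the test. Prdx1 and Prdx2 are the cytosolic typical peroxiredoxins, Prdx3 is the mitochondrial one and Prdx4 resides in the endoplasmic reticulum. Prdx1 read 11.69, 11.70 and 11.57 on the WT arrays and 11.57, 11.10 and 11.50 on the H2AX KO arrays. H2AX KO replicate 2 lay below the rest and the groups met at their edge. The log2 fold change was -0.26 (standard error 0.12, 95% interval -0.52 to -0.0034, adjusted p = 0.12 from limma). Without H2AX KO replicate 1 Prdx1 passed the test (-0.35, adjusted p = 0.043), and without H2AX KO replicate 2 its log2 fold change was -0.12. A dimmer probe set of Prdx1 gave a difference of -0.27.

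Prdx2 read 11.67, 11.76 and 11.74 on the WT arrays and 11.92, 11.87 and 11.87 on the H2AX KO arrays. Each H2AX KO array lay above each WT array, by a gap of 0.11. The log2 fold change was 0.16 (standard error 0.06, 95% interval 0.02 to 0.30, adjusted p = 0.071 from limma). It depended on the probe set, since a dimmer probe set, which read 9.95, 9.90 and 10.03 in WT and 10.44, 10.21 and 10.28 in H2AX KO cells, gave 0.35 (adjusted p = 0.0055). The mean of both gave 0.25 (adjusted p = 0.012).

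Prdx3 read 9.79, 9.90 and 9.95 on the WT arrays and 10.28, 9.83 and 10.09 on the H2AX KO arrays. The H2AX KO arrays were spread widely (SD 0.23) and one of them lay within the WT range. The log2 fold change was 0.19 (standard error 0.11, 95% interval -0.05 to 0.43, adjusted p = 0.23 from limma), and 0.31 without H2AX KO replicate 2 (adjusted p = 0.015).

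Prdx4 read 9.68, 9.85 and 9.75 on the WT arrays and 9.35, 9.16 and 9.38 on the H2AX KO arrays, without overlap. Prdx4 fell by 0.46 on the log2 scale (standard error 0.08, 95% interval -0.64 to -0.29, adjusted p = 0.0013 from limma), to 72.5% of the WT level. The gene lies on the X chromosome, and whether the lower Y-chromosome genes bear on its fall was not tested.

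Within each array, Srxn1 was set against each of the 4 peroxiredoxins, as a description of unequal change. The difference of Srxn1 minus Prdx1 averaged -2.19 in WT and -3.02 in H2AX KO cells, a shift of -0.83. The shift was -1.25 against Prdx2, -1.28 against Prdx3 and -0.63 against Prdx4. In none of the 4 pairs did the WT and H2AX KO arrays overlap. Each shift is the log2 fold change of Srxn1 less that of the other gene. The smallest was therefore against Prdx4, and the shifts add no evidence beyond the single genes.

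**Figure D2:**
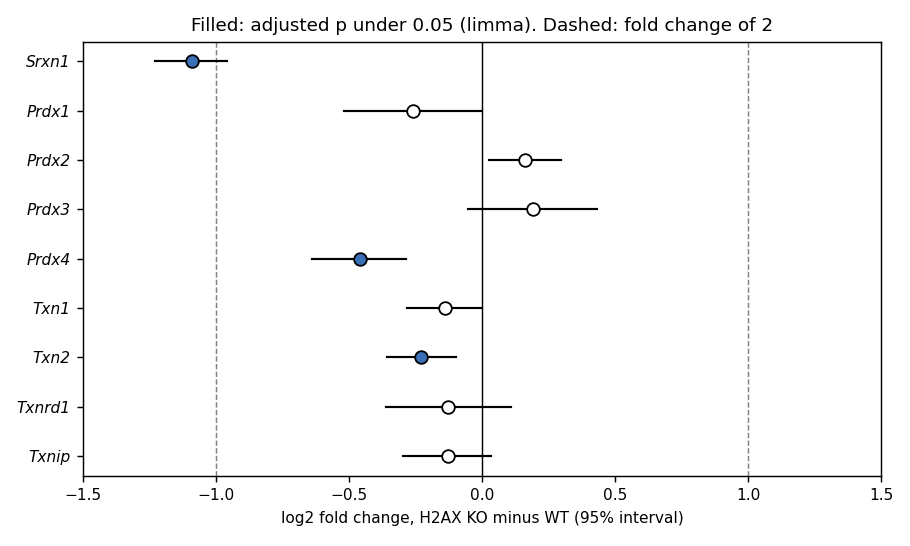
Log2 fold change of H2AX KO minus WT (x axis) for the 9 genes, with the 95% interval from limma as a bar, filled points for an adjusted p under 0.05 and dashed lines at a fold change of 2. Srxn1 at -1.09 lies past the dashed line, Prdx4 (-0.46) and Txn2 (-0.23) are filled, and the other 6 lie between -0.26 and 0.19.

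The cytosolic thioredoxin branch showed small differences. Thioredoxin, encoded by Txn1, read 13.29, 13.22 and 13.25 on the WT arrays and 13.15, 13.05 and 13.12 on the H2AX KO arrays. The groups stood apart by 0.07. The log2 fold change was -0.14 (standard error 0.06, 95% interval -0.28 to -0.0063, adjusted p = 0.11 from limma), and it passed the test with a trended and robust variance prior (adjusted p = 0.028). Txnrd1, the selenoprotein that reduces cytosolic thioredoxin, read 9.30, 9.52 and 9.65 on the WT arrays and 9.47, 9.19 and 9.43 on the H2AX KO arrays. Its groups overlapped, and its log2 fold change was -0.13 (standard error 0.10, 95% interval -0.36 to 0.11, adjusted p = 0.42 from limma). A change of 2-fold in either direction lies outside that interval.

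Txnip read 9.76, 9.97 and 9.88 on the WT arrays and 9.80, 9.67 and 9.73 on the H2AX KO arrays. These ranges overlapped, and the log2 fold change was -0.13 (standard error 0.07, 95% interval -0.30 to 0.03, adjusted p = 0.21 from limma). Within arrays, Txnip minus Txn1 averaged -3.38 in WT and -3.37 in H2AX KO cells, a shift of 0.01. Txnrd1 minus Txn1 shifted by 0.02.

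In mitochondria, Txn2 takes the place of Txn1 and Txnrd2 that of Txnrd1. Txn2 read 10.78, 10.82 and 10.81 on the WT arrays and 10.55, 10.59 and 10.58 on the H2AX KO arrays. The arrays within a group differed by at most a few hundredths, and the groups did not overlap. Txn2 fell by 0.23 (standard error 0.06, 95% interval -0.36 to -0.10, adjusted p = 0.012 from limma), to 85.3% of the WT level. Txnrd2, which was not among the 10 genes, read 7.29, 7.55 and 7.52 in WT and 7.14, 7.06 and 7.02 in H2AX KO cells, again without overlap. It fell by 0.38 (standard error 0.08, adjusted p = 0.0053 from limma, and adjusted p = 0.057 in the methods' test without moderation). Txn2 minus Prdx3, the peroxiredoxin it reduces, shifted by -0.42 between WT and H2AX KO arrays.

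H2AX KO replicate 2 was the lowest of the H2AX KO arrays for 6 of the 9 genes, Prdx1, Prdx3, Prdx4, Txn1, Txnrd1 and Txnip. It was the lowest for 41.1% of all genes. For Srxn1 and Txn2 it was the highest. Without H2AX KO replicate 2 the same count of genes, 3, was lower, and 1 was higher. Among the WT arrays, replicate 1 was the lowest for Prdx2, Prdx3, Prdx4, Txn2, Txnrd1 and Txnip.

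Start regions were searched because NRF2 (Nfe2l2), the transcription factor of the antioxidant response, and MondoA, the glucose-responsive factor, are known to act on genes of this system. Each region is the window of 250 bases before to 50 after the start in RefSeq (GRCm38.p6), 5′ to 3′ on the strand of the gene. All 10 genes had at least 1 such window, 12 in all. The windows of 4 genes are shown, chosen because they held a match. Capitals mark every match, on either strand, to TGACNNNGC (the core of the NRF2 element), TGANTCA (the AP-1 type element), TGANTCAGC (the AP-1 type element that also ends as the NRF2 element does) or the carbohydrate response element (a pair of CACGNG with 5 bases between them), to which MondoA binds. TGANTCAGC contains TGANTCA and can overlap TGACNNNGC. The windows are Srxn1 at chr2:152105274-152105573 (plus strand), Prdx1 at chr4:116685349-116685648 (plus strand), 1 of 3 for Txnrd1 at chr10:82858956-82859255 (plus strand) and Txnip at chr3:96557707-96558006 (plus strand).
Srxn1: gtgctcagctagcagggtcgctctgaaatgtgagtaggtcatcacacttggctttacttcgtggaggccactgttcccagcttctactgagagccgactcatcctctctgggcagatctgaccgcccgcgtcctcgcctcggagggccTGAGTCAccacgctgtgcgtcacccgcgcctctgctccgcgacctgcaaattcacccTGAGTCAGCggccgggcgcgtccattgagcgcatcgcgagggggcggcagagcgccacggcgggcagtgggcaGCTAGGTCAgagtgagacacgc
Prdx1: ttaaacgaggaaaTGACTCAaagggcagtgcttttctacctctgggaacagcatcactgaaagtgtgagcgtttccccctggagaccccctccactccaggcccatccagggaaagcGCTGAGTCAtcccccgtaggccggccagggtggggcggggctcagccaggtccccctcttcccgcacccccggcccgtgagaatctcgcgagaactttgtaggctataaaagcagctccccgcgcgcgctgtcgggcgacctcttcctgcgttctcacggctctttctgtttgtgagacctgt
Txnrd1: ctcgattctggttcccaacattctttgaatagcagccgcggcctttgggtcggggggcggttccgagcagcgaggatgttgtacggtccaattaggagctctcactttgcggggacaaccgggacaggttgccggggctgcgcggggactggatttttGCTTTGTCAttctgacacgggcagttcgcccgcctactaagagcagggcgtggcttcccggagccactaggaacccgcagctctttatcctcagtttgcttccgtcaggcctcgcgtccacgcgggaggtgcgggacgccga
Txnip: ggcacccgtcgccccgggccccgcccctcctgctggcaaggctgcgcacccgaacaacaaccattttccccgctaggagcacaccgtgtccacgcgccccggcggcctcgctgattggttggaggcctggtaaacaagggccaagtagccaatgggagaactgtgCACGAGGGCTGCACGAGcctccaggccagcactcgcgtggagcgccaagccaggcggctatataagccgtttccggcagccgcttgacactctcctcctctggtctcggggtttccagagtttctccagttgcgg

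The windows of Srxn1 and Prdx1 both held TGANTCAGC, which occurs in 1.19% of 32851 such windows. In Srxn1 it read TGAGTCAGC at bases 206 to 214, with a further TGAGTCA at bases 149 to 155. In Prdx1 it lay on the opposite strand at bases 118 to 126 (printed as GCTGAGTCA), where it also matched TGACNNNGC, and TGACTCA lay at bases 14 to 20. TGACNNNGC, in 12.4% of windows, further matched the opposite strand of Srxn1 at bases 279 to 287 and of Txnrd1 at bases 159 to 167. TGANTCA was in 7.81% of windows. Srxn1 had a log2 fold change of -1.09 and Prdx1 one of -0.26, and the part of these motifs in either was not tested. Of 213 genes tested with TGANTCAGC in a window, 41 (19.2%) were lower and 40 (18.8%) were higher, against 15.0% and 18.4% of all genes, with a median log2 fold change of 0.008. Of 2371 genes with TGACNNNGC, 16.1% were lower and 21.2% higher, and of 1262 with TGANTCA, 16.6% and 12.7%. Of 10 genes with the carbohydrate response element, 0 were lower and 5 higher. The Txnip window held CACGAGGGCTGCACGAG at bases 166 to 182, a match to the carbohydrate response element that is in 0.0487% of windows. In the windows of Prdx2, Prdx3, Prdx4, Prdx5, Txn1 and Txn2 none of the 4 motifs was found. The same held for the Txnrd1 windows at chr10:82833701-82834000 and chr10:82860091-82860390.

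NRF2 and its other targets were read on the same arrays. Nfe2l2 read 11.46, 11.53 and 11.57 in WT and 10.43, 10.05 and 10.26 in H2AX KO cells, and Keap1, its inhibitor, read 7.93, 8.05 and 8.04 and then 7.95, 7.99 and 7.98. Nfe2l2 fell by 1.27 (standard error 0.09, adjusted p = 4.1e-06 from limma), and the difference for Keap1 was -0.03 (adjusted p = 0.79), or 0.01 with each array centred on its median. Of 9 measured genes of NRF2 and its partners, 4 were lower (15.0% of all genes) and none higher (18.4%), at a median of -0.19. The small Maf protein Maff, which pairs with NRF2, had the second largest fall (-0.29, adjusted p = 0.026 from limma). It did not pass without WT replicate 1 (adjusted p = 0.063), WT replicate 2 (0.11), H2AX KO replicate 1 (0.060) or H2AX KO replicate 3 (0.11). Without WT replicate 2 the count of lower genes was 2, and without H2AX KO replicate 2 that of higher genes was 1. The study chose Nfe2l2 and Nqo1 on these arrays. In H2AX KO fibroblasts it also reported lower transcripts (by PCR) and proteins of both and of Gclc. A reporter driven by the NRF2 element was less active there as well. On these arrays Gclc had a log2 fold change of 0.14 and did not pass (adjusted p = 0.13 from limma). The other NRF2 targets went both ways, at a median of 0.14. Of 19 measured, 8 were higher (18.4% of all genes), 7 were lower (15.0% of all genes) and 4 did not pass. Nqo1, a quinone reductase, fell by 1.40 and the aldo-keto reductase Akr1b8 by 0.98. The cystine importer Slc7a11 rose by 1.35 and the glutathione transferase Gsta4 by 0.94 (all with adjusted p from 6.4e-07 to 2.7e-06, limma).

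The fall of Prdx4 stood beside falls of other enzymes of the endoplasmic reticulum. Of 9 measured peroxidases outside the 10 genes, 3 were lower, Gpx8, Gpx7 and catalase (Cat), and none was higher. The shares over all genes were 15.0% lower and 18.4% higher. Prdx6, the remaining peroxiredoxin, was not analysed here. Gpx7 and Gpx8 are glutathione peroxidase relatives of the endoplasmic reticulum. Gpx8 read 11.56, 11.53 and 11.59 in WT and 10.61, 10.42 and 10.59 in H2AX KO cells, and fell by 1.02 (standard error 0.07, adjusted p = 2.6e-06 from limma). Gpx7 read 7.01, 7.03 and 7.15 in WT and 6.72, 6.41 and 6.43 in H2AX KO cells, and fell by 0.54 (standard error 0.09, adjusted p = 0.0012). For both genes every H2AX KO array lay below every WT array. The remaining 6 peroxidases, among them the glutathione peroxidases Gpx1 and Gpx4, did not pass the test. Gpx2, Gpx3, Gpx5 and Gpx6 averaged 4.74, 4.35, 4.06 and 4.65 in WT cells. These levels lay below the array medians (6.06 to 6.12).

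Genes of disulfide formation, the process in which Prdx4 passes oxidising equivalents to protein disulfide isomerases, were more often lower than higher. Of 25 measured members, 13 were lower (15.0% of all genes), 3 were higher (18.4% of all genes) and 9 did not pass, at a median log2 fold change of -0.26. The count of higher members was 6 without H2AX KO replicate 2, and 1 in the methods' test without moderation. The sulfhydryl oxidase Qsox2 read 8.13, 8.31 and 8.33 in WT and 7.07, 6.48 and 6.81 in H2AX KO cells and fell by 1.47 (adjusted p = 1.7e-05 from limma). Tmx4, a membrane thioredoxin-like protein, read 9.57, 9.77 and 9.67 and then 8.74, 8.12 and 8.49, and fell by 1.22 (adjusted p = 8.3e-05). Against this direction, Txndc16 rose by 2.04 (adjusted p = 6.3e-07), from 5.12, 5.30 and 5.19 to 7.51, 7.02 and 7.20, and the disulfide isomerase Pdia5 by 0.42 (adjusted p = 0.0076). H2AX KO replicate 2 was the lowest of its group in each of these 4 genes. Pdia5 did not pass in the methods' test without moderation (adjusted p = 0.085).

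**Figure D3:**
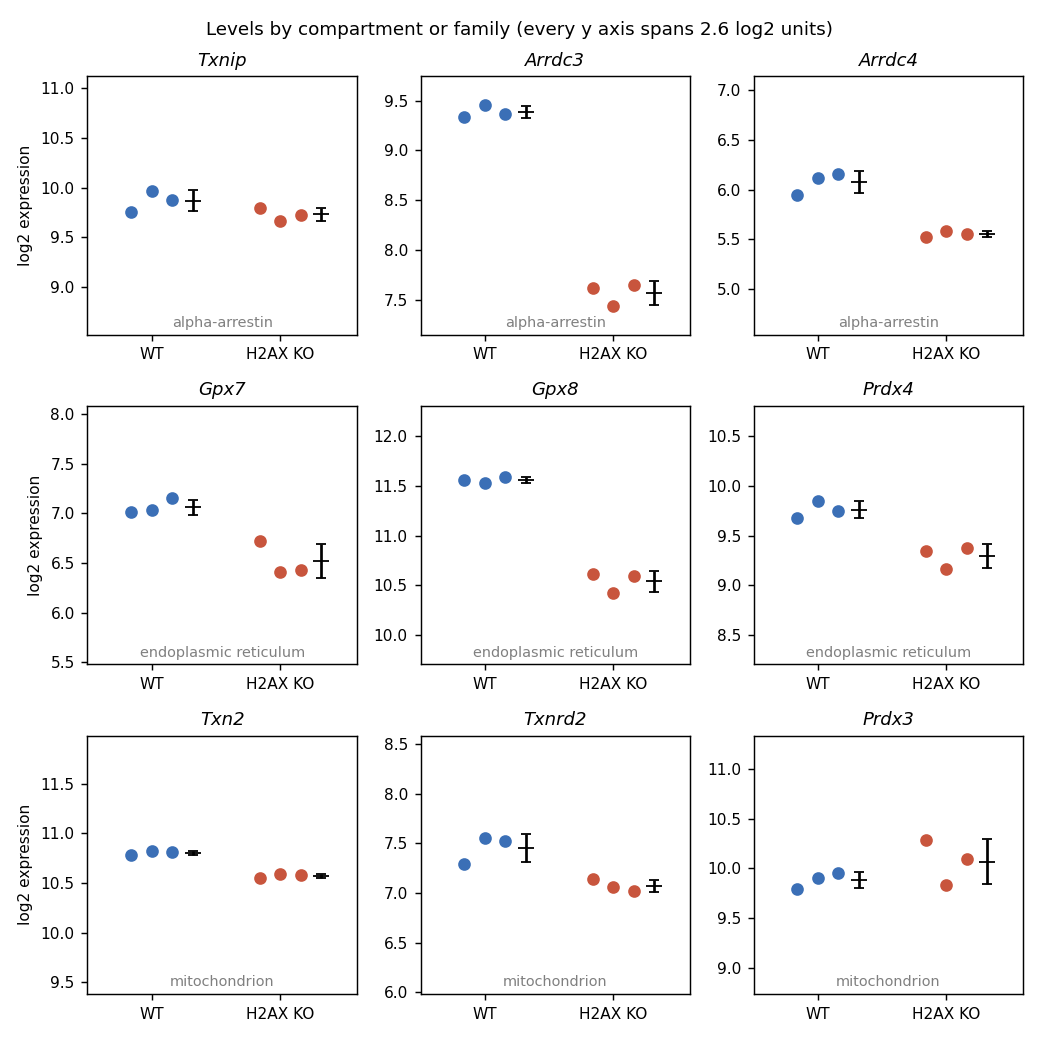
Log2 expression (y axis) on the 3 WT (blue) and 3 H2AX KO (red) arrays, 1 point per array, with the mean and SD in black, for Txnip and 2 alpha-arrestin relatives (top), peroxidases of the endoplasmic reticulum (middle) and mitochondrial genes (bottom). All axes span the same number of log2 units. Arrdc3, Arrdc4, Gpx7, Gpx8, Prdx4, Txn2 and Txnrd2 do not overlap between genotypes, whereas Txnip and Prdx3 do.

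Txnip belongs to the alpha-arrestins, adaptors that direct membrane proteins to ubiquitin ligases, and several of its relatives changed. The difference between their changes and that of Txnip was not tested. Arrdc3 read 9.34, 9.46 and 9.37 in WT and 7.62, 7.43 and 7.65 in H2AX KO cells, and fell by 1.82 (standard error 0.08, adjusted p = 7.2e-08 from limma). Arrdc4, which like Txnip responds to glucose, read 5.95, 6.12 and 6.16 in WT and 5.52, 5.58 and 5.55 in H2AX KO cells, and fell by 0.53 (adjusted p = 0.00028). Arrdc2 rose by 0.40 (adjusted p = 0.013 from limma). It did not pass without WT replicate 2 (adjusted p = 0.054) or H2AX KO replicate 3 (0.057). Of the 11 measured relatives and partners of Txnip, 3 were lower (15.0% of all genes) and 3 were higher (18.4%). The count of higher genes was 1 without WT replicate 2 and in the methods' test without moderation, and 0 without H2AX KO replicate 3. Mlxip, which encodes MondoA, rose by 0.29 (adjusted p = 0.011), and the glucose transporter Slc2a1, whose uptake Txnip restrains, fell by 0.32 (adjusted p = 0.0040). Mlxip did not pass without H2AX KO replicate 3 (adjusted p = 0.055) or in the methods' test without moderation (0.051).

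Relatives and clients of thioredoxin changed in both directions. Of 12 thioredoxin reductases and thioredoxin-like genes, 3 were lower (15.0% of all genes) and 2 were higher (18.4%). Besides Txnrd2, the lower ones were Txndc9, a partner of the chaperonin that folds actin and tubulin (-0.45, adjusted p = 0.0086 from limma), and Txndc17 (-0.37, adjusted p = 0.0013). Txndc9 did not pass in the methods' test without moderation (adjusted p = 0.097) or with its dimmer probe set (-0.29, adjusted p = 0.094 from limma). The higher ones were the splicing factor relative Txnl4b (0.42, adjusted p = 0.0027) and the reductase Txnrd3 (0.46, adjusted p = 0.026). The latter did not pass without WT replicate 1 (adjusted p = 0.062), H2AX KO replicate 1 (0.080) or H2AX KO replicate 3 (0.073). Of 9 measured proteins that thioredoxin reduces or binds, 3 were lower (15.0% of all genes) and 3 were higher (18.4%). Map3k5, the stress kinase ASK1 that reduced thioredoxin holds inactive, read 6.21, 6.49 and 6.25 in WT and 5.00, 5.14 and 5.16 in H2AX KO cells, and fell by 1.22 (adjusted p = 3.3e-06). Methionine sulfoxide reductases, which return to their active form through thioredoxin, went both ways, with Msrb2 lower by a log2 fold change of -1.25 and Msrb3 higher by 1.35. Msrb1 was also higher (0.29, adjusted p = 0.0071 from limma), and Msra did not pass (-0.07, adjusted p = 0.53). Apex1, a repair enzyme that thioredoxin binds in the nucleus, rose by 0.33 (adjusted p = 0.0021).

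Of the 3 sestrins, proteins first linked to peroxiredoxin repair, Sesn1 rose from 8.76, 8.74 and 8.71 to 9.88, 9.60 and 9.73, a log2 fold change of 1.00 (limma, adjusted p = 7.1e-06), and the other two did not pass. NADPH is the electron source of thioredoxin reductase. Of 12 measured genes of its supply, 7 were higher (18.4% of all genes) and 3 were lower (15.0%), at a median of 0.26. The list includes the NAD kinases Nadk and Nadk2, which make NADP rather than NADPH. The mitochondrial Aldh1l2 rose by 1.37 and the mitochondrial NAD kinase Nadk2 by 0.98, while cytosolic Idh1 fell by 0.90 and Pgd of the pentose phosphate pathway by 0.44 (adjusted p from 6.1e-07 to 0.0053). For selenocysteine, which Txnrd1 carries in its active site, 9 genes related to its synthesis, insertion or breakdown were measured. Of these, 1 was higher (18.4% of all genes), Pstk at 0.38 (adjusted p = 0.019 from limma). Another 1 was lower (15.0% of all genes), Secisbp2l at -0.93 (adjusted p = 1.4e-05). Pstk did not pass without WT replicate 1 (adjusted p = 0.073), WT replicate 3 (0.067) or H2AX KO replicate 3 (0.084).

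**Figure D4:**
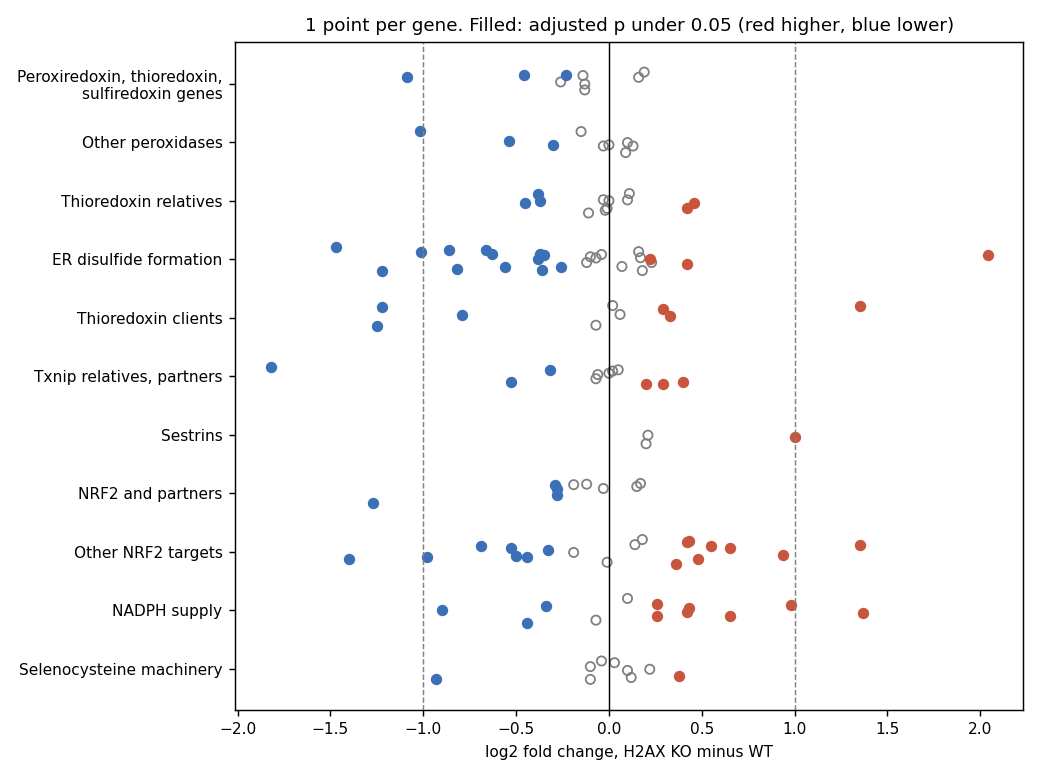
Log2 fold change of H2AX KO minus WT (x axis) for each measured gene of the system and of 10 related lists, 1 point per gene, filled red (higher) or blue (lower) at an adjusted p under 0.05 from limma and open otherwise, with dashed lines at a fold change of 2. In the top row 3 of 9 points are filled, all blue, and in the list of disulfide formation 13 are blue and 3 are red. Of all genes 15.0% were lower and 18.4% were higher.

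The genes whose profile over the 6 arrays was nearest to that of Srxn1, after the mean of each gene was subtracted, were Mmp10, Tubb6, Gprc5b, Fblim1 and Fbln1. They encode a matrix protease, a tubulin, a membrane receptor, an actin-binding adaptor and the matrix protein fibulin 1. Their Euclidean distances from Srxn1 ran from 0.076 to 0.111 log2 units. None of them is among the 10 genes or the related lists.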

How the data were processed

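RNA of 3 WT and 3 H2AX KO samples of mouse embryonic fibroblasts was read on Affymetrix Gene ST arrays. The authors made CHP files in Affymetrix Expression Console and normalized the scanned arrays in Partek (version 6.6), and what they deposited is a log2 value for each of 35556 probe sets. The sources used here name no background correction, normalization method or build. The methods name version 2.0 of the array, whereas the identifiers match the annotation of version 1.0, in which 21789 probe sets have 1 symbol, 1621 have several and 12146 are not listed. The latter 2 kinds were not used. Symbols were updated through RefSeq (GRCm38.p6, 21698 matched). For 999 genes with several probe sets the one brightest on average was kept.

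H2AX KO was compared with WT by limma (version 3.58.1, R version 4.3.3), with lmFit and eBayes, no covariate and Benjamini-Hochberg adjustment over 19938 genes, at an adjusted p under 0.05. The procedure was tested on simulated data. Lists are described by counts and medians. Named outside the 10 genes were H2ax, Nfe2l2, Keap1, Nqo1, the 2 largest rises and falls of each list and the 5 profiles nearest to Srxn1. Col1a1, Vim, Cat, Gpx1, Gpx2, Gpx3, Gpx4, Gpx5, Gpx6, Gclc, Msra, Msrb1, Nadk, Txndc17, Slc2a1 and Kdm5d were named after their values were seen. The 10 genes and the lists were chosen with earlier results of these data known. Alternatives were the replicate block, leaving out each array, the methods' one-way analysis of variance without moderation, another variance prior, median centring, quantile normalization, the mean of probe sets, dropping the dimmest 50% of genes, a fold change over 2 and, added after seeing the data, the probe set with the lowest mean. At most 0.0872% of probe sets had identical values on any 2 arrays of a genotype.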

Additional observations from a re-analysis of the deposited data

How the results depend on the processing

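Srxn1, Prdx4, Txn2 and H2ax kept their direction and stayed past the threshold under each alternative other than a fold change over 2, which Prdx4 and Txn2 did not reach, and Txnrd1 and Txnip stayed short of it. The count of lower genes among the 9 was 3 to 4 when 1 array was left out and 1 with a fold change over 2. The count of higher genes was 0 to 1 when 1 array was left out. It was 1 in the methods' test without moderation, with the trended and robust prior, after median centring, with the mean of probe sets and with the dimmer probe set. That gene was Prdx2 (log2 fold change 0.16 with adjusted p = 0.039, 0.16 with 0.030, 0.20 with 0.035, 0.25 with 0.012 and 0.35 with 0.0055, in that order). When 1 array was left out, the log2 fold change lay between -0.35 and -0.12 for Prdx1, between 0.08 and 0.31 for Prdx3 and between -0.17 and -0.11 for Txn1, which passed with the robust prior (-0.14). Of the 116 genes of the related lists, 27 were higher and 39 lower (18.4% and 15.0% of all genes). With a fold change over 2 as well, 4 were higher and 9 lower (2.12% and 3.18% of all genes). Keap1 turned to 0.01 after median centring. Shared replicate numbers did not pair the arrays (correlation of deviations -0.29, -0.24 and 0.08). With the replicate block, 3 of the 9 genes were lower and 0 higher, Txn2 had an adjusted p of 0.045 and Txnrd3 one of 0.054.

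In the smaller lists, some counts moved by over 1.5 times in the methods' test without moderation. They included those of thioredoxin relatives (lower 3 to 1), NRF2 and partners (lower 4 to 2) and NADPH supply (lower 3 to 1). Precision is limited by the 3 arrays a group. Standard errors of the 9 genes ran from 0.06 to 0.12, the smallest change that passed was -0.23 (Txn2), and -0.26 (Prdx1) did not pass. Cd68 (adjusted p = 0.065 with the replicate block, 0.12 in the methods' test without moderation) and Cdh5 (0.10 in the latter) also lost their calls.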
